A study of Mus musculus with 2 samples.

Results

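Chains of closely spaced Tle3 peaks in mouse bone marrow progenitors were examined. The list of called regions (peaks) was sorted by position, and consecutive peaks were chained when the gap between their edges was at most 10000 bp. Members were thus selected on the called positions alone, and not on score. Of 5136 peaks, 322 (6.27%, 95% exact interval 5.62 to 6.97%) lay in 100 chains of 3 or more. A further 818 peaks formed pairs, and 3996 were single. The peaks came from 1 chromatin immunoprecipitation and sequencing (ChIP-seq) library precipitated with anti-Tle3 and 1 control library. The control is given as normal IgG in some labels and as input in others, so its kind is not settled. The mice behind both libraries were wild type, of the C57BL/6 strain and 8 to 10 weeks old. Their bone marrow was sorted for cells without lineage markers and with cKit, the receptor for stem cell factor, and some labels call the same cells T cells. The labels do not say how many mice were pooled, and the list holds binding and no RNA, so the cell type could not be checked against its markers.

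Tle3 is a member of the Groucho family of corepressors. These proteins have no DNA-binding domain and reach chromatin through DNA-binding partners, among them HES, RUNX and TCF/LEF proteins. A C-terminal propeller domain binds short peptide motifs of HES and RUNX proteins. An N-terminal domain rich in glutamine binds TCF/LEF proteins and lets the corepressors form oligomers, and they recruit histone deacetylases. Whether Groucho proteins act from single sites or along longer stretches of chromatin has been a question of that field. In blood progenitors, RUNX and other lineage factors often occupy several elements around the same gene, which is the setting in which neighbouring corepressor sites are of interest.

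Each peak has a position in the mouse build mm9 and a score given by the authors. The score is that of the peak caller MACS, which in the version used is 10 times the negative log10 of a p-value for enrichment over local background. It starts at 50 in the list, a p-value of 1e-05, and it counts no reads and measures no fold. No read totals accompany the list, so the depth is unknown. There were no replicates, and values below describe 1 list, with no test. Intervals are 95% exact intervals for shares and medians. They cover counting error only and treat peaks as independent, although peaks of a chain share a locus. Chain membership was set by the positions of the peaks, so counts of chains, spans and gaps are descriptions of what was selected. No peak was assigned to a gene, as an mm9 annotation was not used here.

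Most chains were short and small. Exactly 3 peaks were held by 80 chains, 4 by 18 chains and 5 by 2 chains. The span from the first to the last base of a chain ran from 2.08 to 28.1 kb, with a median of 9.33 kb (7.67 to 11.3 kb) and quartiles of 6.11 and 13.1 kb. Under 5 kb lay 14 chains, and 6 exceeded 20 kb. Peaks took up a median of 28.0% of the span (21.2 to 31.5%). In 13 chains they took up more than 50% of it. All chains together spanned 1039 kb, of which 249.9 kb lay in peaks.

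The 222 gaps inside chains had a median of 2621 bp (2088 to 3283 bp), with quartiles of 1025 and 5926 bp. Gaps under 1 kb numbered 55 (24.8%, 19.2 to 31.0%), those from 1 to 5 kb 101 (45.5%) and longer ones 66 (29.7%). Only 18 gaps (8.11%, 4.88 to 12.5%) were under 200 bp. The 409 gaps of pairs had a median of 2906 bp (2101 to 3454 bp). Among them 134 (32.8%, 28.2 to 37.5%) were under 1 kb and 60 (14.7%, 11.4 to 18.5%) under 200 bp. Very short gaps thus made up a smaller share in chains than in pairs, with intervals that overlap at both limits. At least 1 gap under 1 kb occurred in 48 chains, and in 5 chains all gaps were that short. The longest gaps that were still inside a chain were 9943 and 9960 bp. The shortest distances from a chain to the next peak outside it were 11027 and 11498 bp. A limit of 9 kb would have given 88 chains and a limit of 11 kb 104.

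**Figure D1:**
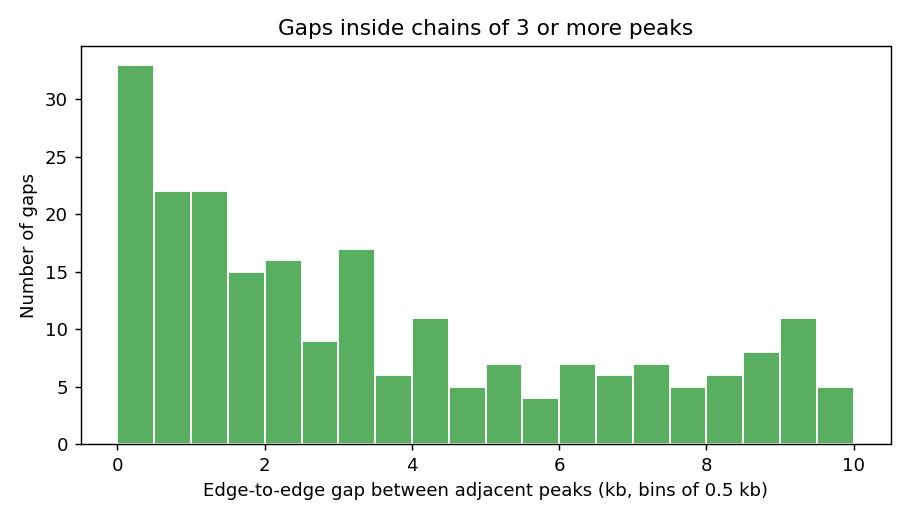
Number of edge-to-edge gaps between adjacent peaks inside the 100 chains (vertical axis) by gap length in kb (horizontal axis), 222 gaps in all. The shortest gaps are the most frequent, the median is 2621 bp, and 66 gaps lie at 5 kb or more.

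Scores in chains were close to those in the rest of the list. The median score of the 322 chain peaks was 74.1 (69.1 to 79.6), against 70.0 (67.9 to 72.7) for pairs and 68.3 (67.5 to 69.3) for single peaks. The intervals of chains and single peaks overlap. Scores of at least 100 were found for 93 chain peaks (28.9%, 24.0 to 34.2%), against 24.5% of all peaks and 23.7% (22.4 to 25.1%) of single ones. Scores of at least 200 were found for 22 chain peaks (6.83%, 4.33 to 10.2%), against 4.4% of all peaks and 3.93% (3.35 to 4.58%) of single ones. These shares are close to the background of the list. Of the 15 highest scoring peaks of the list, 1 lay in a chain, where 6.27% of all peaks lie in chains. The highest score in a chain was 518, while single peaks reached 1113 and pairs 3100. Maxima depend on group size, and there were 322 chain peaks, 3996 single peaks and 818 peaks in pairs.

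Wide peaks were more frequent in chains than among single peaks. The median width of chain peaks was 698 bp (652 to 735 bp), against 664 bp (647 to 681 bp) for pairs and 654 bp (646 to 663 bp) for single peaks. More than 1000 bp was spanned by 53 chain peaks (16.5%, 12.6 to 21.0%), against 11.1% of all peaks and 10.6% (9.62 to 11.6%) of single ones, so the interval for chains lies above that for single peaks. Pairs had 97 such peaks (11.9%, 9.72 to 14.3%), with an interval that overlaps that of chains. Without the chain on chromosome X, described below, the share was 15.7% (11.9 to 20.1%). Width is not free of the selection, because a wider peak leaves a shorter gap between edges. Over the 322 chain peaks, pooled across chains, score rose with width (Spearman's rho 0.77, Pearson's r 0.51). Both values come from the same caller.

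Scores differed within chains, and 43 of the 100 chains held exactly 1 peak with a score of at least 100. The highest peak of each chain had a median score of 120.9 (106 to 144), the second highest 79.8 (73.55 to 85.2) and the lowest 55.3 (53.8 to 57.0). Ranking any 3 or more values gives an ordering of this kind, and no sets of unchained peaks were ranked beside it. The difference between the highest and the lowest had a median of 60.6 (50.5 to 83.6), and that between the highest and the second a median of 31.2. In 33 chains no peak reached a score of 100, in 43 chains 1 peak did, in 22 chains 2 and in 2 chains 3. No chain (0 of 100, which allows up to 3.62% by the exact interval) had a score of at least 100 in every peak. The lowest peak scored under 60 in 72 chains. Peaks other than the highest reached 100 in 26 of 222 cases (11.7%). The highest peak was also the widest in 72 chains.

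**Figure D2:**
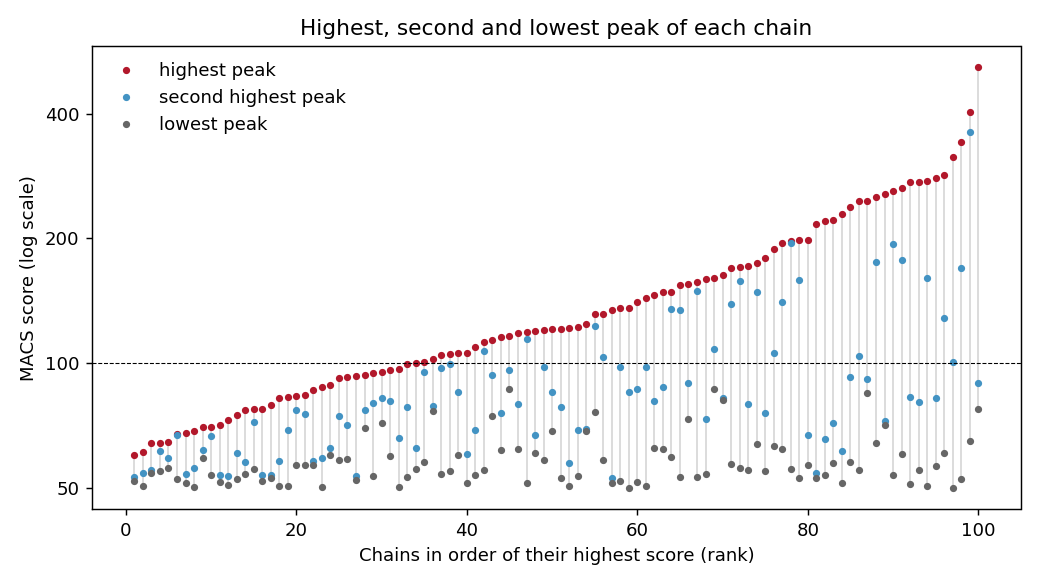
MACS score on a log scale (vertical axis) of the highest, second highest and lowest peak in each of the 100 chains, which are ranked by their highest score (horizontal axis). The dashed line marks a score of 100, reached by the highest peak in 67 chains and by the second highest in 24, while the lowest peaks stay between 50 and 86.6.

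The ranks of the scores of adjacent chain members were almost unrelated. Across the 222 adjacent pairs inside chains they had a Spearman's rho of -0.05 and a Pearson's r of -0.00088. The pairs come from 100 loci, share the library, and are cut off below at a score of 50. Split by distance, rho was -0.04 over 55 gaps under 1 kb, -0.11 over 101 gaps from 1 to 5 kb and -0.02 over 66 longer gaps. Pearson's r over the same 3 classes was 0.09, -0.11 and 0.17. For peaks in pairs rho was 0.08 and r was 0.43 (409 pairs), so the 2 measures differ there. The pairs include the highest peak of the list, with its score of 3100, and its part in r was not tested. For neighbours more than 10 kb apart rho was 0.02 and r was 0.01 (4485 pairs). Widths of adjacent chain members had a rho of 0.03 over all gaps, made up of 0.12 under 1 kb, 0.13 from 1 to 5 kb and -0.19 over longer gaps. The scores of adjacent chain members differed by a median of 30.6, against 25.2 in pairs and 24.2 in neighbours more than 10 kb apart.

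**Figure D3:**
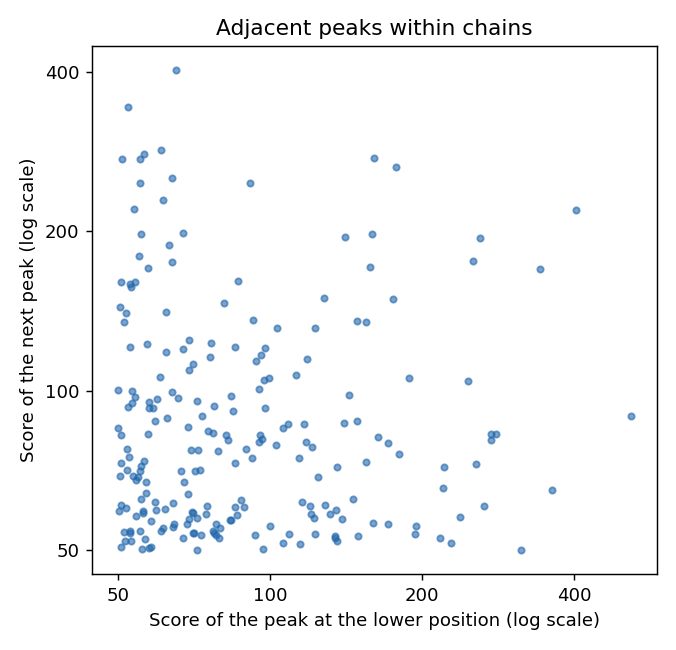
Scores of the 222 adjacent peak pairs inside chains, the peak at the lower position on the horizontal axis and the next peak on the vertical axis, both on log scales. The points fill both arms beside the axes and few lie high on both, with a Spearman's rho of -0.05.

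The strongest peak was found at every place in the chain. Among the 80 chains of 3, it was the middle peak in 34 (42.5%, 31.5 to 54.1%), the first in 27 (33.8%, 23.6 to 45.2%) and the last in 19 (23.8%, 14.9 to 34.6%). Equal chances for each place would be 33.3%, which lies within all 3 intervals. The widest peak was in the middle in 33 of the 80. Over all chains the strongest peak was at an end in 53 of 100 (42.76 to 63.06%). Ends make up 63.13% of the places when each chain counts equally, which lies just above that interval.

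The 2 chains of 5 peaks differed in layout. The one at chr8:125222769-125244821 spanned 22.1 kb, and its peaks in order of position scored 136, 71.6, 50, 85.2 and 72.9. Its first 3 peaks lay within gaps of 835 and 1085 bp, and the others 8845 and 7854 bp further on. The strongest peak was thus the first of a tight trio. The chain at chr5:123576086-123601536 spanned 25.5 kb with scores of 54.9, 68.8, 64.0, 99.4 and 105. Its gaps ran from 2432 to 9241 bp, and the higher scores stood at one end.

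**Figure D4:**
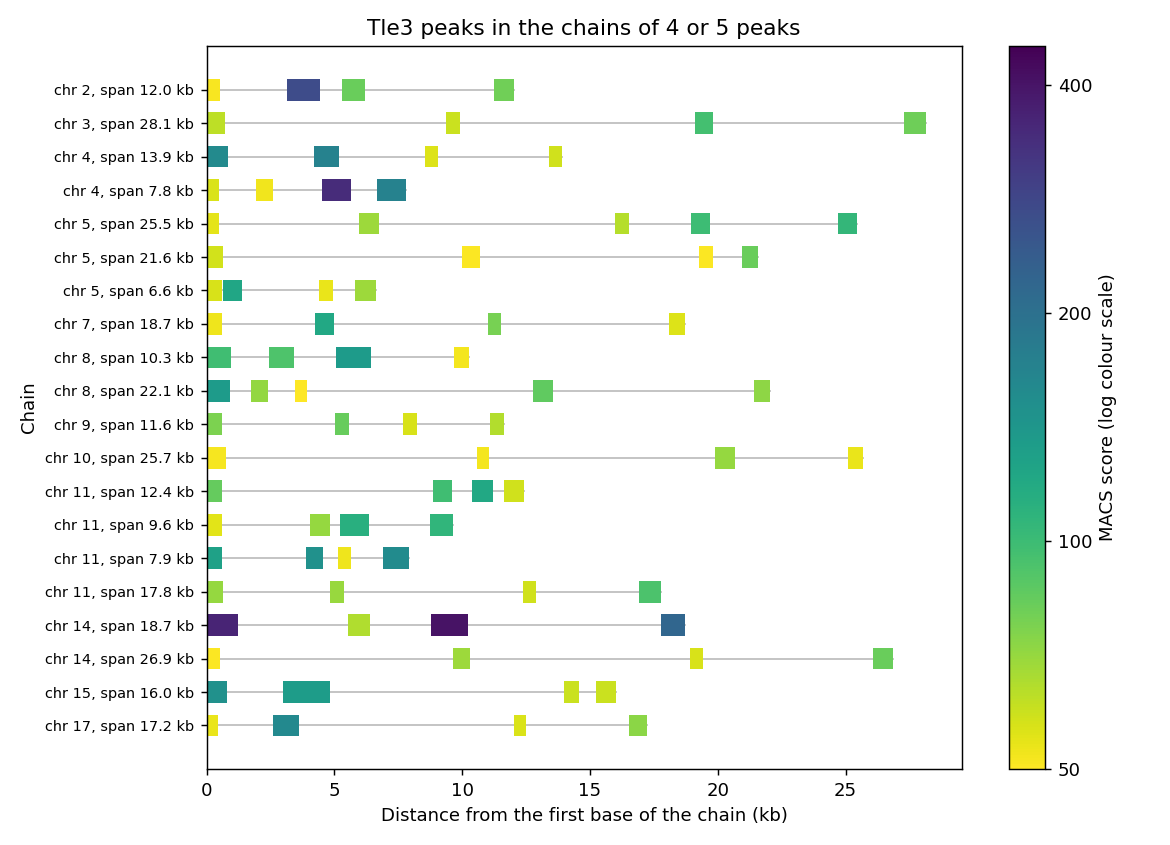
Peaks of the 20 chains of 4 or 5 peaks, each on a line of its own, by distance from the first base of the chain in kb (horizontal axis). Each block is a peak drawn to its width, and its colour gives the MACS score on a log scale. The chain on chromosome 14 that spans 18.7 kb holds 3 of the darkest blocks.

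Among the 18 chains of 4, the strongest lay at chr14:70456362-70475094. Its peaks scored 362, 65.1, 403 and 219 and were 1234, 868, 1433 and 973 bp wide. It was the only chain in which 3 peaks scored over 200, with the weak peak between the first and the next of them. The gaps were 4300, 2375 and 7550 bp. The chain at chr4:135728614-135736403 was more compact, at 7.79 kb. It scored 56.7, 52.5, 342.5 and 170, so that 2 strong peaks lay next to each other with 1005 bp between them. At chr11:103032185-103040088, a chain of 7.90 kb scored 128, 150, 53.1 and 157. This and the strongest chain were the 2 chains with 3 peaks of at least 100.

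In 3 further chains of 4, 2 neighbouring peaks reached 100. At chr4:116792736-116806655 the first 2 peaks scored 158 and 171 and the last 2 scored 56.1 and 58.7. At chr15:76338422-76354443 the scores were 149, 135, 59.5 and 59.6, and the second peak was 1835 bp wide. At chr11:69804911-69814534 the scores were 55.3, 70.55, 112 and 107, with the strong peaks at the other end. In these 3 chains the strong members sat together at one end and the weak ones at the other.

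A single peak of at least 100 was found in 6 chains of 4. The largest contrast was at chr2:32564868-32576905, with scores of 51.1, 273, 82.7 and 80.8. At chr17:47641860-47659108 the scores were 54.0, 160, 56.4 and 73.55. The chain at chr8:86722012-86732266 scored 98.0, 92.6, 136 and 52.1, so 2 further peaks came near 100. In all 3 the highest peak was an inner one.

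The other 3 of these 6 had top scores close together. They lay at chr5:143578692-143585302 (57.1, 122.6, 53.6 and 69.1), chr7:16825030-16843744 (52.8, 121, 78.4 and 56.0) and chr11:68901510-68913917 (83.7, 97.8, 120 and 58.6). The first of these was the shortest chain of 4, at 6.61 kb, and its first 2 peaks were 26 bp apart. With the chain of 5 on chromosome 8 and that on chromosome 5, each with 1 peak of at least 100, the chains of 4 or 5 reached 100 in 14 of 20 cases.

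In the remaining 6 chains of 4 no peak reached 100, and 3 of the 6 were among the 5 longest of all. At chr3:90463266-90491403 the longest chain of all, 28.1 kb, scored 62.0, 59.8, 96.6 and 81.0. At chr14:71166132-71192981 the scores over 26.9 kb were 50.55, 69.0, 57.3 and 82.95, and at chr10:79610464-79636130 they were 51.6, 52.1, 70.9 and 53.8 over 25.7 kb. These 3 long chains were loose rows of peaks under 100, with peaks on 9.27 to 10.0% of the span. The chain at chr5:141072717-141094308, 21.6 kb long, scored 58.1, 50.6, 50.75 and 82.6. At chr11:117835886-117853671 the scores were 70.9, 70.5, 58.7 and 92.9. At chr9:114679246-114690889, the shortest of the 6 at 11.6 kb, they were 77.3, 83.3, 56.9 and 64.2.

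The 10 chains of 3 with the highest top score spanned 5.67 to 13.9 kb. The top one was at chr18:55059451-55066801, where the first peak scored 518 and its neighbours 89.8 and 77.6. This peak was the only chain member among the 15 highest scoring peaks of the list. At chr19:46937740-46944284 the first peak scored 315, followed by peaks of 50.1 and 100.5 that were 16 bp apart, the shortest gap in any chain. At chr6:120416436-120424108 the weak peak was the middle one, with scores of 129, 60.95 and 284.

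As in the chain with the top score, 1 peak stood alone above 100 in 3 others of the 10. At chr4:140531228-140543248 the scores were 56.4, 280 and 82.7, and at chr11:98798987-98805050 they were 55.3, 274 and 80.8. These chains have nearly the same profile of scores, with the strongest peak flanked by the weakest on the lower and the second on the higher side. At chr10:79390205-79403973 the profile was 256, 72.8 and 70.8, with the strong peak first.

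Strong members next to each other, both at 100 or more, were seen in 4 of the 10. At chr7:29165603-29171268 the first 2 peaks scored 177 and 265, were 162 bp apart, and the second was 1972 bp wide. At chr8:87224902-87231024 they scored 260 and 194 and were 755 bp apart. At chr18:35013919-35021242 the last 2 peaks scored 252 and 176 with 2833 bp between them, and the weaker was the wider at 1975 bp. At chr11:120478585-120492511 the scores were 50.7, 161 and 275. In the 10 chains the second highest score ran from 72.8 to 194 and reached 100 in 6.

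The 5 shortest chains were compact stretches of peaks that scored from 52.8 to 100.85. The shortest took up 2084 bp at chr15:96115875-96117958, with scores of 64.3, 55.4 and 54.4 and peaks on 78.0% of the span. Next came chr1:74419719-74422340 (79.3, 52.8 and 53.8), chr7:25156779-25159541 (64.6, 56.0 and 59.2) and chr10:94405193-94407999 (92.2, 74.8 and 58.5). The fifth, chr10:80597980-80600939, had scores of 57.7, 95.35 and 100.85. It was the only one of the 5 in which a peak reached 100.

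On chromosome X there was 1 chain, at chrX:166429578-166446328, and it stood apart by width. Its peaks were 3667, 1955 and 3131 bp wide, all above 1000 bp, and 2 of them were among the 5 widest of the whole list. They scored 96.2, 117 and 86.6. The lowest member of this chain was the highest of all lowest members. The next peak outside it was 1318 kb away, the longest such distance of any chain. Multi-copy sequence was not examined.

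The other 64 chains all had 3 peaks and spanned 2.96 to 19.5 kb. Their highest scores ran from 60 to 246.5 with a median of 118, their second scores from 52.8 to 195 with a median of 76.0, and their lowest from 50.25 to 86.5.

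Chains lay in neighbourhoods that held further peaks. The next peak outside a chain was a median of 38.8 kb away (25.5 to 44.7 kb), against 58.0 kb (52.3 to 67.9 kb) for pairs and 76.0 kb (73.2 to 81.4 kb) for single peaks. Another peak lay within 50 kb of 64 of 100 chains (64.0%, 53.8 to 73.4%), of 177 of 409 pairs (43.3%, 38.4 to 48.2%) and of 1404 of 3996 single peaks (35.1%, 33.7 to 36.6%). All of these distances exceed 10 kb by the way the groups were made. The selection used the same positions, so the difference is a description.

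Some chains lay near other chains, but most did not. With chains up to 1 Mb apart joined, 35 chains fell into 13 runs of 2 or more, and 65 stood alone. The same count was not made for pairs or single peaks, so whether such runs are particular to chains is not known. The largest run held 5 chains with 15 peaks, at chr17:34164023-36017279, with a top score of 180. Runs of 4 chains with 13 peaks each lay at chr8:86261880-87510143 and chr10:79390205-80600939, with top scores of 260 and 256. Runs of 3 chains lay on chromosome 11 at 68901510 to 69814534 and at 74385960 to 74987331. The closest chains of all, on chromosome 1 at 74419719 to 74444265, were 14007 bp apart.

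Chromosome 11 held the most chains, 15, followed by chromosome 7 with 10 and chromosomes 8, 10 and 17 with 9 each. These 5 chromosomes carried 52 of the 100 chains and 31.5% of all peaks. They were picked for their chain counts, which favours a share of chains above their share of peaks. Of the peaks on chromosome 11, 49 of 439 (11.2%, 8.37 to 14.5%) were in chains, and on chromosome 10 it was 28 of 261 (10.7%, 7.25 to 15.1%). On chromosome 13 none of 202 was, which allows up to 1.81% by the exact interval. On chromosome 6 it was 3 of 279 (1.08%, 0.222 to 3.11%), and on chromosome 2, which has 394 peaks, 10 (2.54%, 1.22 to 4.62%). The share over the whole list was 6.27%.

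**Figure D5:**
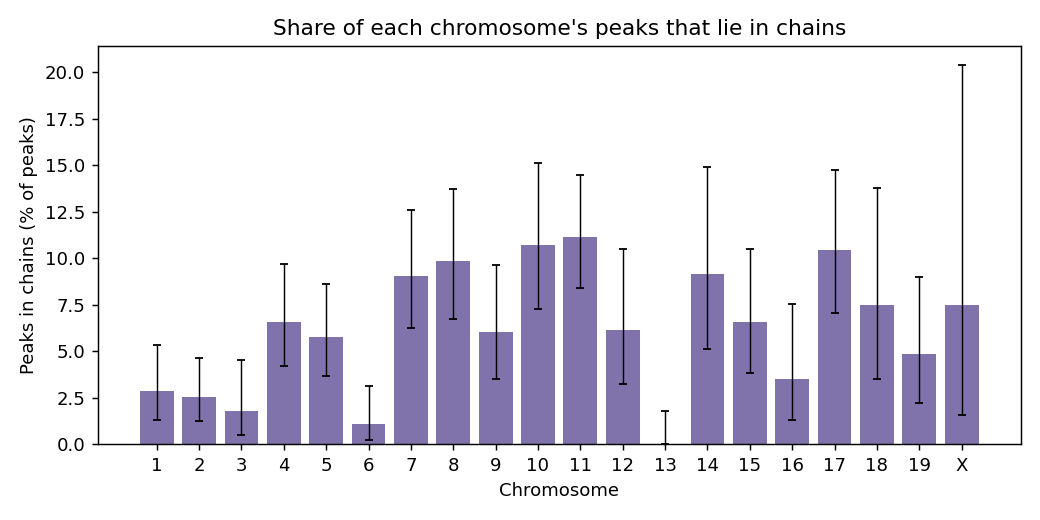
Percent of the peaks of each chromosome that lie in chains of 3 or more (vertical axis), by chromosome (horizontal axis), with 95% exact intervals as error bars. Chromosomes 10, 11 and 17 reach 10.4 to 11.2%, chromosome 13 has 0 of 202, and the interval of chromosome X is wide because it has 40 peaks.

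Relative to the number of protein-coding genes, counted per chromosome in the RefSeq table of GRCm38.p6, chromosome 11 had 9.32 chains per 1000 genes, chromosome 10 had 8.99, chromosome 8 had 8.64 and chromosome 17 had 8.50. The value over all 20 chromosomes was 4.62. Chromosome 7, second in chains, had 4.93. Chromosomes 6, 3, X and 2 had 0.888, 1.02, 1.04 and 1.68, and chromosome 13 had 0. So the chromosomes rich in chains, other than 7, were rich in them per gene too. The chain counts that picked these chromosomes also enter this rate, which favours high values for them.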

How the data were processed

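The deposited data were 1 list of peaks from 1 Tle3 library and 1 control library. The tools were Bowtie2 and MACS 1.4 and the build mm9, per the submitters' processing notes. Parameters, filters on reads and the handling of duplicates were not given in the sources used here. Libraries were amplified for 18 to 21 PCR cycles, per the labels' protocols. Each peak carries a MACS score, as deposited in the fifth column. The other deposited columns are the chromosome, start, end and a running peak name, and starts were converted to count from 1.

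Peaks were chained at edge-to-edge gaps of at most 10000 bp, and 0 peaks overlapped. The chaining was tested on 1 simulated list, on 1 chromosome, with groups more than 20000 bp apart. Gaps just over the limit and changes of chromosome were thus not tested. Shares carry Clopper-Pearson intervals and medians order-statistic intervals. Alternatives were gaps of 5000 and 20000 bp, minimum scores of 60 and 100, and merging of peaks within 1000 bp. The chains, lists and thresholds were chosen with earlier results of these data known. Chains named by rule are those of 4 or more peaks, the 10 of 3 peaks with the highest top score, the 5 shortest and 5 longest, any with all peaks at 100 or more, and any holding one of the 15 highest scoring or 5 widest peaks. A few further chains of 3 peaks, named in the closing section, were chosen after their values were seen. Gene context, sequence content and motifs, and a list of blood genes, were not analysed here, since no genome or annotation of mm9 was used. The software was Python 3.11.15, SciPy 1.17.1, numpy 2.4.6, matplotlib 3.10.9 and pandas 2.3.3.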

Additional observations from a re-analysis of the deposited data

How the results depend on the processing

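Which peaks form chains depends strongly on the limits. With gaps of at most 5000 bp there were 55 chains holding 3.35% of peaks, with a median span of 6123 bp, a median gap of 1493 bp and peaks on 41.3% of the span. With gaps of at most 20000 bp there were 153 chains and 10.5% of peaks, with 19773 bp, 5543 bp and 13.0%. With peaks of a score of at least 60 there were 35 chains and 3.13% of peaks, a median score of 89.8, a median width of 766 bp and 41.1% of chain peaks at 100 or more. With a score of at least 100 only 2 chains remained, on 2 chromosomes, with 0.477% of peaks, a median score of 188, a width of 985.5 bp, 100% at 100 or more, a score difference of 107, a span of 13318.5 bp and a gap of 5413 bp. Merging peaks within 1000 bp left 57 chains and 3.76% of regions, a span of 12038 bp, a gap of 3918 bp and 19.8% of the span in peaks. The other 26 of 55 values stayed within the interval of the reported value, or within 1.5 times a reported count. Removing weak peaks raises scores, and changing the gap limit sets gaps and spans, by construction. No paired analysis was possible because each antibody had a single library. Leaving out a replicate was not possible for the same reason. Alternatives for gene context, sequence content and motifs were not run. The depth is unknown, so how many chains were missed because a member fell under a score of 50 cannot be given.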

Other observations

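The chains that met all of 3 stricter definitions were few. Each definition was applied alone to the full list, and the 3 limits were not applied together. Of the 100 chains, 57 still held 3 separate regions after peaks within 1000 bp were merged, and 55 held 3 peaks with gaps of at most 5000 bp. For the score limit, peaks under 60 were removed and the rest chained again at gaps of at most 10000 bp, which left 3 chained peaks in 35. A chain could thus fail because a removed peak left too long a gap, although 3 of its peaks scored at least 60. The chain of 5 at chr8:125222769-125244821 failed in this way. All 3 were met by 13 chains, 7 of them with 4 or 5 peaks. These 13 had top scores from 83.3 to 518 and spans from 4.62 to 25.5 kb. Among them were the chain with the highest peak, at chr18:55059451-55066801, the strongest chain of 4, at chr14:70456362-70475094, and both chr8:86261880-86266503 and chr8:86722012-86732266, which lie in the same run. The first of these on chromosome 8 scored 108, 86.5 and 161, and the chain at chr5:134705160-134713195 scored 84.7, 91.5 and 246.5. The compact chain at chr4:135728614-135736403 with its peak of 342.5 did not meet all 3. These 13 were singled out after their values were seen, and chr8:86261880-86266503 and chr5:134705160-134713195 are named outside the rule for named chains.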
